A study of Mus musculus with 9 samples.

Results

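The ubiquitin-specific proteases (USPs) outside the SAGA coactivator complex were described in mouse pancreatic tumor cells with and without Usp22. Members were all genes of the table named Usp and a number, with or without a letter suffix, except Usp22 and 7 relatives: Usp27x and Usp51, Usp3, Usp16, Usp44 and Usp49, which act on histone ubiquitin, and Usp18, which acts on the ubiquitin-like protein ISG15. The rule found 48 of the 24493 genes. RNA with poly(A) tails had been sequenced from 9 samples, 3 each of Usp22-KOA, Usp22-KOB and WT, and all were tumor cells of the C57BL/6 line 6419c5, a single clone, taken from late-stage tumors that had been implanted under the skin. Both knockouts carry a disrupted Usp22, and the sources used here give neither the way it was disrupted, nor what A and B stand for, nor the age of the mice, nor how tumor cells were parted from other cells. Values were the authors' TPM, a transcript abundance measure that divides estimated reads by transcript length, so that levels of different genes can be compared. TPM keeps no read depth, so precision rests on how far the 3 samples of each group scatter. The labels do not tie the samples to separate mice, and p-values reflect only this scatter, which may be technical.

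USPs cut ubiquitin from proteins or cut ubiquitin chains, and so decide whether a tagged protein is degraded, moved or left active. Each active USP holds a catalytic cysteine at the start of a conserved fold, and the members differ in the parts around it, which bind substrates, membranes or partner proteins. In epithelial cells they are known from p53 control, DNA repair, receptor sorting, the proteasome and the breakdown of mitochondria.

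In the GENCODE M21 transcripts, the codons for the stretch around this cysteine were found in 46 of the 48 members. The search pattern allowed variants on both sides of the cysteine, and a transcript with a match was preferred. The count is thus a description and not a test. No match was found in Usp39, a splicing factor that is known to lack protease activity, or in Usp6nl, which shares only the name and encodes a GTPase-activating protein for Rab proteins. Below are the 39 coding bases around the cysteine codon, in capitals, for 8 members whose levels the results turn on, with close relatives next to each other, to show what makes these genes 1 family.
Usp25: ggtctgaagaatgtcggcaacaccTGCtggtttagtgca
Usp12: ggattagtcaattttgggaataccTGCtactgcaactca
Usp46: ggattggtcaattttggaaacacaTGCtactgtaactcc
Usp53: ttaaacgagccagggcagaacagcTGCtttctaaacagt
Usp54: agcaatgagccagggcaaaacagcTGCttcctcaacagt
Usp43: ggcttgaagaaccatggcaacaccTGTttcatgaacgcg
Usp20: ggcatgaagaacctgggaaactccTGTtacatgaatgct
Usp30: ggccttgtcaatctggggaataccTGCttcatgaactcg
Usp12 and Usp46 matched at 33 of 39 bases and Usp53 and Usp54 at 32, while the 990 pairs among 45 members had a median of 24 matching bases. The Usp17la and Usp17lb stretches were identical at all 39 bases, as were those of Usp17lc and Usp17ld, so reads of the Usp17l genes may be divided between copies and their single values are uncertain.

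Usp22, the targeted gene, stood at 9.77, 8.46 and 10.1 TPM in the Usp22-KOA samples, with 11.8, 14.9 and 14.1 TPM in Usp22-KOB, against 55.1, 54.5 and 56.4 TPM in WT. Of the 6 tumor epithelium markers, 4 fell in both knockouts on average (Krt18, Krt7, Epcam and Cdh1, limma) and Krt8 and Krt19 did not pass. In Usp22-KOA alone the same 4 fell and Krt19 rose, whereas in Usp22-KOB alone only Krt7 and Epcam fell. The 6 markers summed to 6245 to 7026 TPM in Usp22-KOA, 6812 to 8325 TPM in Usp22-KOB and 7759 to 8264 TPM in WT. Krt8 averaged 2474 TPM in Usp22-KOA samples and 2634 TPM in Usp22-KOB, against 2495 TPM in WT. Krt19 averaged 2814 TPM in Usp22-KOA samples and 1911 TPM in Usp22-KOB, against 2065 TPM in WT. Epcam averaged 37.6 TPM in Usp22-KOA samples and 31.3 TPM in Usp22-KOB, against 379 TPM in WT, and Krt7 averaged 146 TPM in Usp22-KOA samples and 652 TPM in Usp22-KOB, against 905 TPM in WT. Other cell types were also present in the RNA, and none of the markers read for them was listed at 0 in a sample. The 9 macrophage markers summed to 1575 to 3416 TPM in Usp22-KOA, 5562 to 9684 TPM in Usp22-KOB and 2119 to 3215 TPM in WT. The 8 fibroblast markers summed to 188 to 221 TPM in Usp22-KOA, 798 to 1228 TPM in Usp22-KOB and 504 to 924 TPM in WT. The 5 mast cell markers summed to 859 to 1797 TPM in Usp22-KOA, 37.3 to 65.9 TPM in Usp22-KOB and 2.96 to 8.49 TPM in WT. The 10 pan-leukocyte markers summed to 407 to 861 TPM in Usp22-KOA, 768 to 1572 TPM in Usp22-KOB and 315 to 552 TPM in WT. The 8 T and NK cell markers summed to 43.1 to 98.4 TPM in Usp22-KOA, 22.9 to 61.1 TPM in Usp22-KOB and 8.30 to 16.8 TPM in WT, and the 7 endothelium markers to 4.56 to 10.2 TPM in Usp22-KOA, 23.3 to 35.0 TPM in Usp22-KOB and 31.3 to 43.1 TPM in WT. In such bulk RNA, fewer cells of a type and less RNA per cell cannot be told apart.

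The 9 samples averaged 1 TPM or more for 38 members, which were tested, and less for 10. Of the 38, 26 had a mean of at least 10 TPM, and the median tested member stood at 19.1 TPM, against 17.2 TPM for all 13843 genes tested. The 48 members together held 936, 965 and 994 TPM in Usp22-KOA, with 751, 796 and 875 TPM in Usp22-KOB and 887, 851 and 811 TPM in WT. The summed level lay above that of every WT sample in the 3 Usp22-KOA samples, and Usp22-KOB overlapped with WT. The 5 highest members, Usp5, Usp10, Usp7, Usp25 and Usp19, made up between 32.0% and 34.7% of this sum in each sample.

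**Figure D1:**
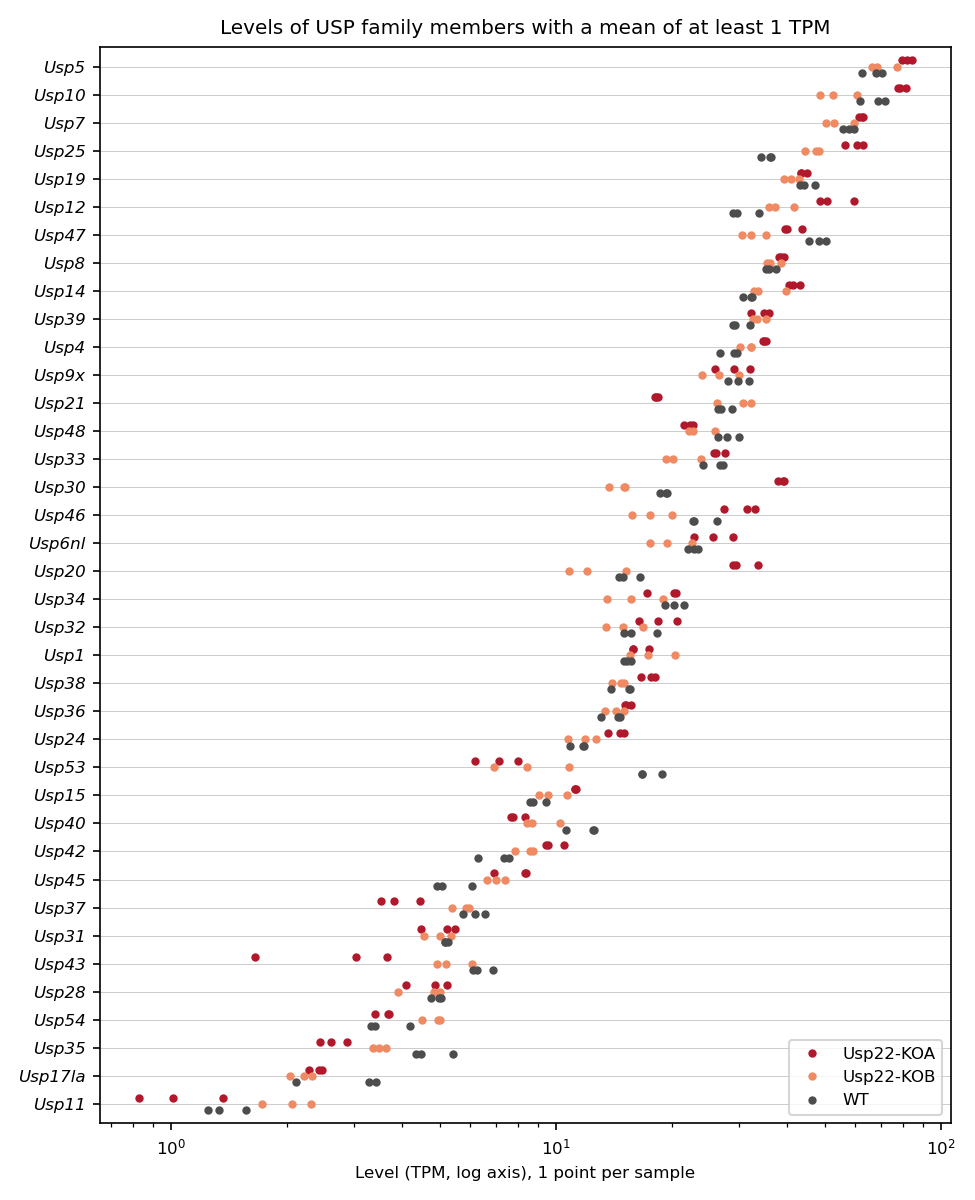
Level in TPM on a log axis of the 38 USP family members with a mean of at least 1 TPM, 1 point per sample, colored by Usp22-KOA, Usp22-KOB and WT, ordered by mean level. Usp5, Usp10 and Usp7 lie highest and Usp11 lowest, and for Usp53, Usp40 and Usp35 the knockout points lie left of the WT points.

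Usp5, Usp10 and Usp7 were the highest members. Usp5 (isopeptidase T), which takes apart free ubiquitin chains, stood at 84.3, 81.6 and 79.6 TPM in Usp22-KOA, with 66.4, 68.4 and 77.0 TPM in Usp22-KOB and 70.6, 67.8 and 62.3 TPM in WT. Only the Usp22-KOA samples were all above WT. Usp10, which acts on p53 and on stalled ribosomes, stood at 77.4, 78.6 and 81.5 TPM in Usp22-KOA, with 48.5, 52.4 and 60.5 TPM in Usp22-KOB and 71.9, 68.8 and 61.8 TPM in WT, so that WT lay between the knockouts without overlap. Usp7, which acts on p53 and its ligase Mdm2, stood at 61.4, 62.4 and 63.0 TPM in Usp22-KOA, with 50.3, 52.9 and 59.6 TPM in Usp22-KOB and 59.7, 57.8 and 55.9 TPM in WT, with Usp22-KOB overlapping WT. Usp13, the close relative of Usp5, was nearly absent, with 0 to 0.0183 TPM in Usp22-KOA, 0.0535 to 0.0816 TPM in Usp22-KOB and 0.0360 to 0.0613 TPM in WT.

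The 10 members below the mean of 1 TPM had means of 0 to 0.515 TPM over the 9 samples and were not tested. Usp2, known from the circadian clock and the cell cycle, was the highest of them, with 0.237 to 0.630 TPM in Usp22-KOA, 0.564 to 0.628 TPM in Usp22-KOB and 0.338 to 0.752 TPM in WT. Usp9y, on the Y chromosome, and Usp17le were listed at 0 in all 9 samples. Usp26 and Usp29, known from testis and from imprinting, and Usp50 averaged at most 0.210 TPM in each group. Usp17lb, Usp17lc and Usp17ld, copies of a cytokine-induced family on chromosome 7, averaged at most 0.128 TPM, whereas their relative Usp17la averaged 2.40 ± 0.101 TPM in Usp22-KOA, 2.20 ± 0.139 TPM in Usp22-KOB and 2.94 ± 0.711 TPM in WT (SD, n = 3 each).

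With both knockouts averaged and set against WT, 11 of the 38 tested members rose, 8 fell and 19 did not pass. Members were thus called in 50.0% of cases, and over all 13843 genes 50.0% were called (25.9% higher and 24.1% lower), so the family moved no more often than the table as a whole. Calls are from limma on log2(TPM + 1) with all 9 samples in 1 fit, at a Benjamini-Hochberg adjusted p under 0.05, and differences below are log2 differences on that scale ± SE. The median log2 difference was 0.02 over the members and 0.01 over all genes, and the median size without sign was 0.19 and 0.27. Only Usp53 differed by at least 1 on the log2 scale in this comparison, and the share of all genes that did so was not counted. Without WT 3 the count of higher members was 7, and without WT 1 the count of lower members was 5. Treating all 6 knockout samples as 1 group, which adds their differences to the spread, 3 members rose and 5 fell, beside 10.4% higher and 10.9% lower of all genes. The call ended for Usp4, Usp5, Usp21, Usp37, Usp39 and Usp48 with pan-leukocyte marker level added as a covariate (limma, adjusted p = 0.0705 to 0.297). A call on the average need not hold in each knockout. In the main fit only Usp12, Usp25 and Usp45 were called higher in each, and only Usp35, Usp40, Usp47, Usp48 and Usp53 lower in each. Usp30 was called higher on average but lower in Usp22-KOB. The share of all genes called the same way in each knockout was not counted.

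In Usp22-KOA against WT, 15 members rose, 8 fell and 15 did not pass, or 60.5% called, beside 56.3% of all genes (29.4% higher and 26.9% lower). In Usp22-KOB against WT, 4 rose, 9 fell and 25 did not pass, or 34.2% called, beside 37.1% of all genes (18.7% higher and 18.4% lower). Both comparisons use the same WT samples. The median log2 difference of the members stood at 0.10 for Usp22-KOA and -0.09 for Usp22-KOB, against 0.02 and -0.01 for all genes. The Usp22-KOB counts rested on single libraries: 1 member rose without Usp22-KOB 2, Usp22-KOB 3, WT 2 or WT 3, 2 rose without Usp22-KOA 2 or Usp22-KOB 1, 3 fell without Usp22-KOB 1 or WT 1, and 4 fell without Usp22-KOB 2 or WT 2. With pan-leukocyte marker level added as a covariate, 3 members rose and 1 fell in Usp22-KOB, beside 7.38% higher and 7.35% lower of all genes. The Usp22-KOB calls that ended were those of Usp10, Usp30, Usp33, Usp35, Usp40, Usp45, Usp46, Usp48, Usp53 and Usp54 (limma, adjusted p = 0.0701 to 0.547), and in Usp22-KOA those of Usp38, Usp39 and Usp47 (0.0571 to 0.127). The summed pan-leukocyte markers did not overlap between Usp22-KOB (768 to 1572 TPM) and WT (315 to 552 TPM). The covariate thus partly follows that comparison and costs it precision. The Usp22-KOB estimates of Usp10, Usp30, Usp46 and Usp53 also shrank with it, as given below. For an ended call, leukocyte content and the knockout therefore cannot be told apart.

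**Figure D2:**
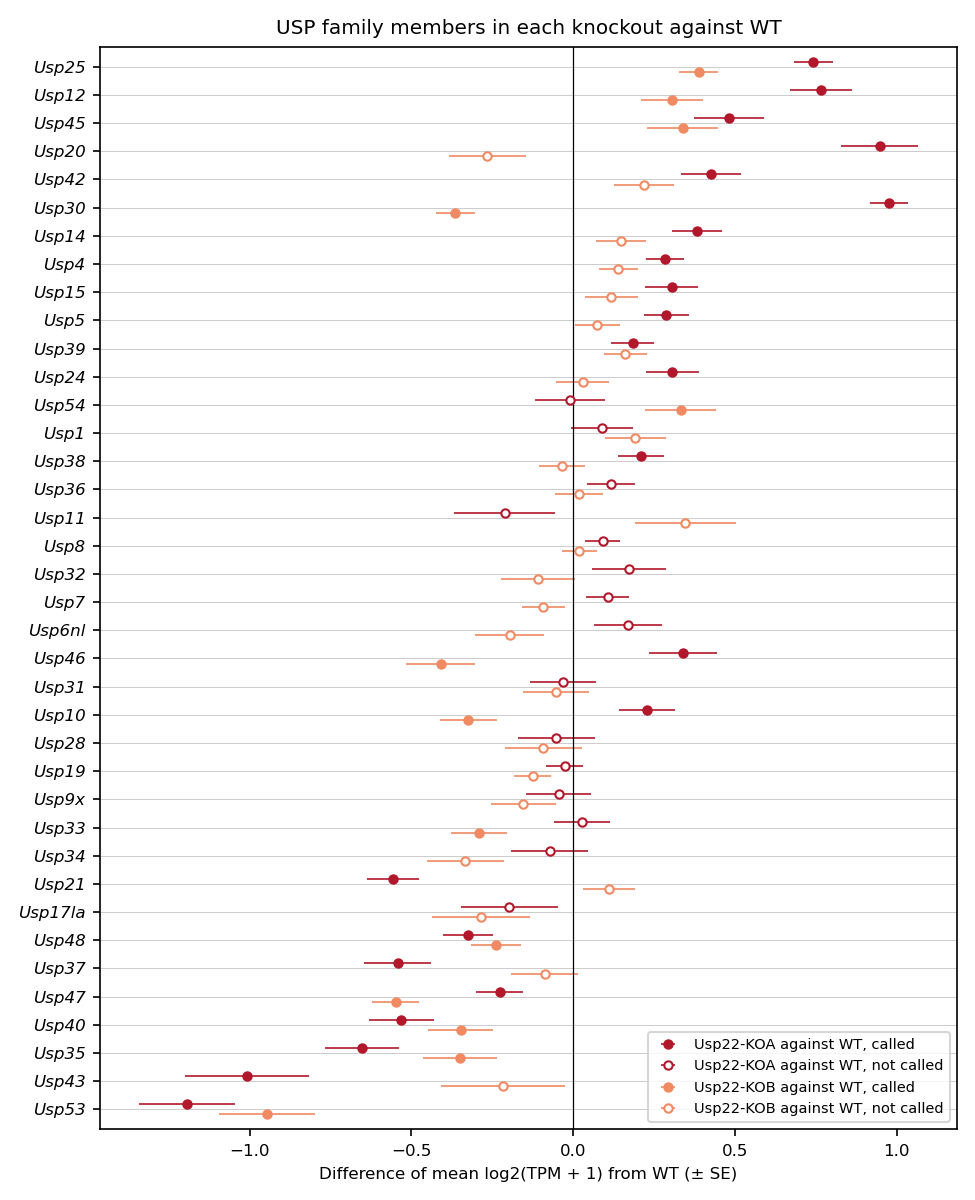
Difference of mean log2(TPM + 1) from WT, with SE, for the 38 tested members in Usp22-KOA and in Usp22-KOB (n = 3 each, filled where called by limma). Usp25, Usp12 and Usp45 lie right of 0 and Usp53, Usp35 and Usp40 left of 0 in both knockouts, while Usp30, Usp46 and Usp10 lie on opposite sides.

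Usp53, which is known to bind the tight junction protein ZO-1, fell most of all members (chromosome 3, 122931493 to 122984510 in GRCm38, protein coding). Its level was 6.17, 7.15 and 8.0 TPM in Usp22-KOA samples and 6.91, 8.41 and 10.8 TPM in Usp22-KOB, against 18.9, 16.7 and 16.8 TPM in WT. All 6 knockout samples were below all WT samples, and the knockouts overlapped with each other. Usp22-KOA averaged 40.6% of the WT level and Usp22-KOB 49.8%, with log2 differences of -1.19 ± 0.15 and -0.95 ± 0.15 and of -1.07 ± 0.13 for both (limma, adjusted p = 0.000133, 0.00141 and 0.000159). With pan-leukocyte marker level added as a covariate the Usp22-KOB difference was -0.52 and was not called (adjusted p = 0.0722). Its relative Usp54, of the same family branch, did not fall: it stood at 3.68, 3.40 and 3.68 TPM in Usp22-KOA, with 4.49, 5.01 and 4.95 TPM in Usp22-KOB and 4.19, 3.40 and 3.32 TPM in WT. All Usp22-KOB samples were above WT, by a log2 difference of 0.33 ± 0.11 (limma, adjusted p = 0.0410). That call rested on single libraries, since it was kept without WT 1 and ended on leaving out any other sample (log2 0.28 to 0.37, adjusted p up to 0.125).

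Usp35, Usp40 and Usp43 also fell in both knockouts on average. Usp35, which has been placed at mitochondria and in cell division, stood at 2.44, 2.87 and 2.60 TPM in Usp22-KOA samples and 3.36, 3.47 and 3.62 TPM in Usp22-KOB, against 5.42, 4.46 and 4.32 TPM in WT. Each knockout lay below WT, with Usp22-KOA lowest. The log2 difference of both was -0.50 ± 0.10 (limma, adjusted p = 0.00266). Usp40, a little studied member, stood at 7.64, 8.34 and 7.74 TPM in Usp22-KOA samples and 8.43, 8.70 and 10.3 TPM in Usp22-KOB, against 12.6, 12.5 and 10.6 TPM in WT. Again all knockout samples were below WT, by -0.44 ± 0.09 (limma, adjusted p = 0.00278). In Usp22-KOB alone the calls of Usp35 (-0.35 ± 0.11, adjusted p = 0.0387) and Usp40 (-0.35 ± 0.10, adjusted p = 0.0245) by limma ended without Usp22-KOB 1, Usp22-KOB 2, WT 1 or WT 2, and that of Usp35 also without Usp22-KOA 1 or Usp22-KOA 2 (log2 -0.27 to -0.38 for Usp35 and -0.30 to -0.32 for Usp40, adjusted p up to 0.134 and 0.0866).

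Usp43 fell in Usp22-KOA (log2 -1.01 ± 0.19, limma adjusted p = 0.00173), where it stood at 3.04, 3.64 and 1.65 TPM, with 4.93, 5.18 and 6.05 TPM in Usp22-KOB and 6.88, 6.09 and 6.25 TPM in WT. Usp22-KOB lay just below WT without overlap and did not pass (-0.22 ± 0.19, limma adjusted p = 0.410). The call of both knockouts (-0.61 ± 0.17, limma adjusted p = 0.0138) ended without WT 1 (-0.57, adjusted p = 0.0561). Its relative Usp31 averaged 5.07 ± 0.523 TPM in Usp22-KOA, 4.97 ± 0.405 TPM in Usp22-KOB and 5.18 ± 0.0526 TPM in WT (SD, n = 3 each) and passed in none of the comparisons.

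Usp47 and Usp48 also fell in both knockouts on average. Usp47, which acts in base excision repair, stood at 40.0, 39.3 and 43.6 TPM in Usp22-KOA samples and 30.4, 32.2 and 35.2 TPM in Usp22-KOB, against 50.4, 48.4 and 45.5 TPM in WT. Here Usp22-KOB was the lower knockout, with log2 differences of -0.23 ± 0.07 in Usp22-KOA and -0.55 ± 0.07 in Usp22-KOB (limma, adjusted p = 0.0247 and 0.000583). The Usp22-KOA call ended without Usp22-KOA 1, Usp22-KOA 2, WT 1 or WT 2 (log2 -0.19 to -0.22, adjusted p up to 0.0879). Usp48, a nuclear member linked to NF-kB and to ubiquitin that BRCA1 places on histone H2A, stood at 22.3, 21.6 and 22.7 TPM in Usp22-KOA samples and 22.2, 22.8 and 26.0 TPM in Usp22-KOB, against 30.0, 27.8 and 26.4 TPM in WT. All knockout samples were below WT, with a log2 difference of -0.28 ± 0.07 for both (limma, adjusted p = 0.00709) and of -0.20, not called (adjusted p = 0.136), with pan-leukocyte marker level added as a covariate.

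Usp25, known from endoplasmic reticulum-associated degradation and innate immune signaling, rose most in both knockouts on average (chromosome 16, 77013706 to 77116780 in GRCm38, protein coding). Its level was 56.6, 60.7 and 63.0 TPM in Usp22-KOA samples and 44.6, 47.4 and 48.4 TPM in Usp22-KOB, against 36.1, 34.1 and 36.3 TPM in WT. The 3 groups did not overlap, with Usp22-KOA highest at 169% and Usp22-KOB at 132% of the WT mean. The log2 differences were 0.74 ± 0.06 and 0.39 ± 0.06, and 0.57 ± 0.05 for both (limma, adjusted p = 1.02e-05, 0.00135 and 3.39e-05), and Usp22-KOA exceeded Usp22-KOB by 0.35 ± 0.06 (adjusted p = 0.00122). Its relative Usp28, which acts with the DNA damage protein 53BP1, did not pass in any comparison and averaged 4.73 ± 0.578 TPM in Usp22-KOA, 4.58 ± 0.602 TPM in Usp22-KOB and 4.92 ± 0.151 TPM in WT (SD, n = 3 each).

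Usp12 and Usp46 are close relatives that both need the partner protein Wdr48 for activity (chromosome 5, 146734809 to 146795006 and 73998453 to 74068431 in GRCm38, both protein coding). Usp12 stood at 48.7, 50.8 and 59.5 TPM in Usp22-KOA samples and 35.8, 37.1 and 41.6 TPM in Usp22-KOB, against 33.8, 29.6 and 28.8 TPM in WT. The groups did not overlap, and Usp22-KOA was highest. It rose by 0.77 ± 0.10 in Usp22-KOA and 0.31 ± 0.10 in Usp22-KOB on the log2 scale (limma, adjusted p = 0.000140 and 0.0348), and the Usp22-KOB call ended without Usp22-KOB 2, Usp22-KOB 3, WT 2 or WT 3 (log2 0.24 to 0.32, adjusted p up to 0.109). Usp46 stood at 27.3, 33.0 and 31.3 TPM in Usp22-KOA, with 15.8, 17.6 and 20.1 TPM in Usp22-KOB and 26.2, 22.7 and 22.8 TPM in WT, so that Usp22-KOA lay above and Usp22-KOB below every WT sample. Its log2 differences were 0.34 ± 0.11 and -0.41 ± 0.11 (limma, adjusted p = 0.0229 and 0.0157). The Usp22-KOA call ended without Usp22-KOA 2, Usp22-KOA 3, WT 2 or WT 3 (log2 0.28 to 0.32, adjusted p up to 0.0825), and the Usp22-KOB call without Usp22-KOB 1 or WT 1 (log2 -0.33 to -0.35, adjusted p up to 0.0618) and with the pan-leukocyte covariate (-0.18, adjusted p = 0.471). In Usp22-KOB the pair was thus called in opposite directions, whereas Wdr48 averaged 21.8 ± 1.99 TPM in Usp22-KOA, 19.9 ± 1.24 TPM in Usp22-KOB and 19.6 ± 0.985 TPM in WT and did not pass (limma, adjusted p = 0.362 for both).

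Usp45, Usp42, Usp14 and Usp4 rose by less in both knockouts on average. Usp45, which acts on the repair nuclease subunit Ercc1, stood at 6.92, 8.39 and 8.30 TPM in Usp22-KOA samples and 6.62, 7.01 and 7.39 TPM in Usp22-KOB, against 6.08, 4.92 and 5.06 TPM in WT, and rose by 0.41 ± 0.09 in both (limma, adjusted p = 0.00614). In Usp22-KOB alone Usp45 rose by 0.34 ± 0.11 (limma, adjusted p = 0.0378). That call ended without Usp22-KOA 2, any 1 Usp22-KOB sample, WT 2 or WT 3 (log2 0.29 to 0.37, adjusted p up to 0.118). Usp42, which acts on p53, stood at 9.53, 9.45 and 10.5 TPM in Usp22-KOA samples and 7.84, 8.75 and 8.55 TPM in Usp22-KOB, against 7.57, 7.35 and 6.29 TPM in WT, and rose by 0.32 ± 0.08 (adjusted p = 0.00938). All knockout samples of these members were above WT.

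Usp14, which is bound to the proteasome and trims chains there, stood at 40.5, 41.5 and 43.0 TPM in Usp22-KOA samples and 32.7, 33.6 and 39.8 TPM in Usp22-KOB, against 32.4, 30.6 and 32.1 TPM in WT. Usp22-KOB was only just above WT, and the log2 difference of both was 0.27 ± 0.07 (limma, adjusted p = 0.00958). Usp4, which removes ubiquitin from the TGF-beta type I receptor, stood at 35.3, 34.5 and 34.8 TPM in Usp22-KOA samples and 30.0, 32.1 and 32.2 TPM in Usp22-KOB, against 29.1, 29.5 and 26.8 TPM in WT. All knockout samples were above WT, by 0.21 ± 0.05 (adjusted p = 0.00773), and the call ended with the pan-leukocyte covariate (0.21, adjusted p = 0.0705). In Usp22-KOB alone neither Usp14, Usp4 nor Usp42 passed (limma, adjusted p = 0.166, 0.0935 and 0.0967). With the 6 knockout samples as 1 group, Usp14 (adjusted p = 0.0898), Usp4 (0.0685) and Usp42 (0.0592) were not called by limma. Usp15, a relative of Usp4 with the same receptor among its substrates, averaged 11.2 ± 0.0530 TPM in Usp22-KOA, 9.78 ± 0.853 TPM in Usp22-KOB and 8.92 ± 0.473 TPM in WT, and rose in Usp22-KOA by 0.31 ± 0.08 (limma, adjusted p = 0.0111).

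**Figure D3:**
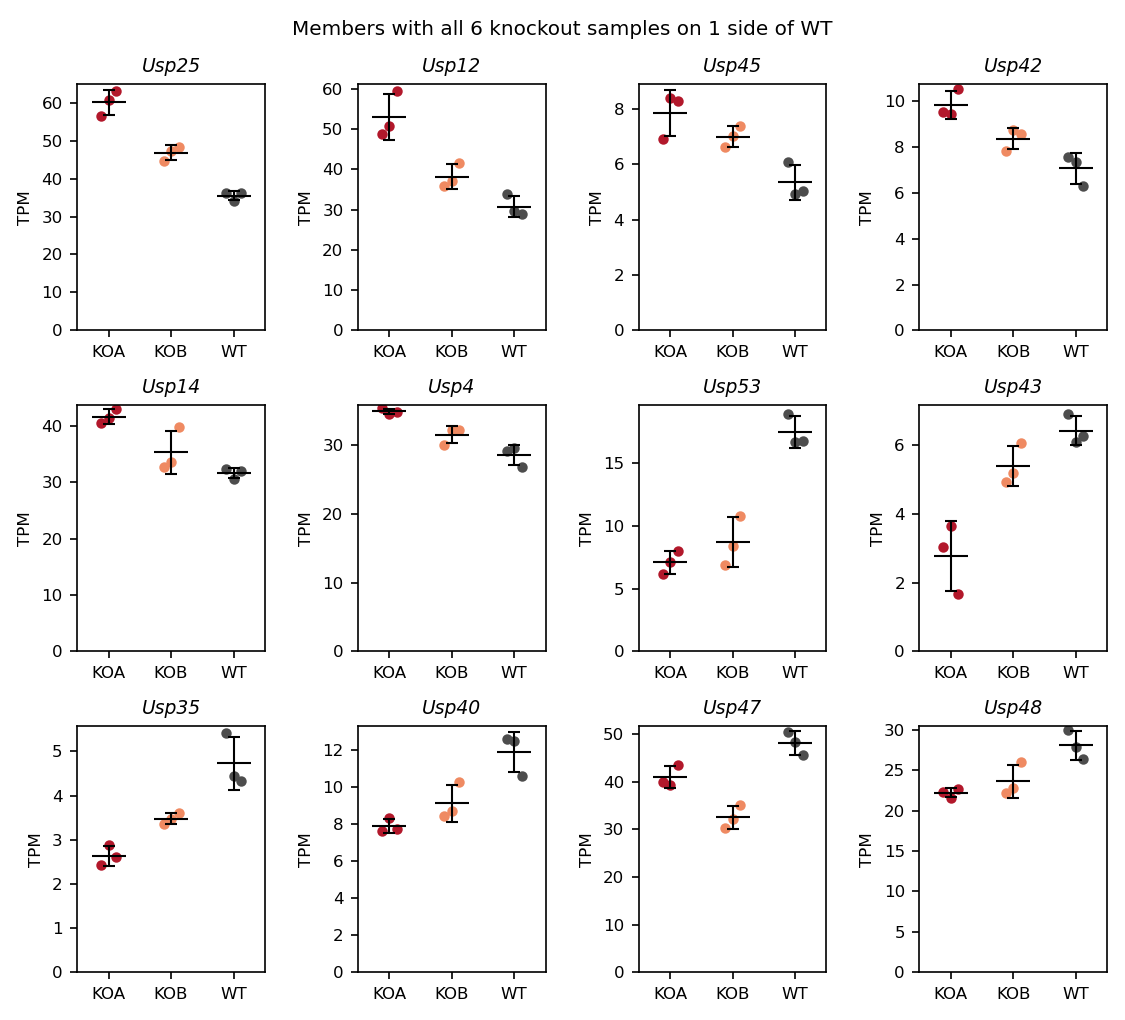
TPM per sample in Usp22-KOA, Usp22-KOB and WT, with mean and SD (n = 3 each), for the 12 members with the highest and lowest called log2 differences whose 6 knockout samples all lie on 1 side of WT. The first 6, from Usp25 to Usp4, lie above WT, and the last 6, from Usp53 to Usp48, lie below it.

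Between the knockouts, 14 members were higher in Usp22-KOA, 5 were lower and 19 did not pass, or 50.0% called, beside 51.7% of all genes (27.5% higher and 24.2% lower). The median log2 difference was 0.14 over the members and 0.03 over all genes. The higher count was 9 without Usp22-KOA 2, Usp22-KOA 3 or Usp22-KOB 1 and 8 without Usp22-KOB 2, and the lower count was 3 without Usp22-KOA 3 or Usp22-KOB 2. With pan-leukocyte marker level added as a covariate, 7 were higher and 4 lower, beside 22.7% and 22.5% of all genes, and the calls of Usp5, Usp6nl, Usp7, Usp11, Usp14, Usp24, Usp33, Usp38 and Usp54 ended (limma, adjusted p = 0.0505 to 0.168). Of the markers, 8 of 9 for macrophages, 8 of 8 for fibroblasts and 6 of 6 tested for endothelium were lower in Usp22-KOA, and 5 of 5 for mast cells were higher, and their part in these differences was not tested.

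Usp30, an enzyme of the outer mitochondrial membrane that opposes the clearance of mitochondria by Parkin, differed most between the knockouts (chromosome 5, 114065461 to 114124720 in GRCm38, protein coding). Its level was 37.8, 39.2 and 39.0 TPM in Usp22-KOA, with 13.8, 15.1 and 15.1 TPM in Usp22-KOB and 18.7, 19.3 and 19.4 TPM in WT. The 3 groups were tight and apart, with WT between the knockouts. Usp22-KOA was 2.64 times Usp22-KOB, a log2 difference of 1.34 ± 0.06 (limma, adjusted p = 7.27e-07). Against WT it rose by 0.98 ± 0.06 in Usp22-KOA in contrast to -0.36 ± 0.06 in Usp22-KOB (limma, adjusted p = 1.86e-06 and 0.00181). The Usp22-KOB fall was -0.31 and not called with pan-leukocyte marker level added as a covariate (adjusted p = 0.0701).

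Usp20, which returns beta-adrenergic receptors to the cell surface and acts on HIF-1 alpha, followed (chromosome 2, 30982279 to 31023586 in GRCm38, protein coding). Its level was 29.3, 28.9 and 33.5 TPM in Usp22-KOA, with 10.8, 12.1 and 15.2 TPM in Usp22-KOB and 16.5, 15.0 and 14.6 TPM in WT. Usp22-KOA lay far above the rest, and Usp22-KOB overlapped WT. It rose by 0.95 ± 0.12 in Usp22-KOA, did not pass in Usp22-KOB (-0.27 ± 0.12) and differed between the knockouts by 1.21 ± 0.12 (limma, adjusted p = 0.000139, 0.110 and 4.95e-05). Its relative Usp33 averaged 26.5 ± 0.959 TPM in Usp22-KOA, 21.1 ± 2.41 TPM in Usp22-KOB and 26.0 ± 1.65 TPM in WT (SD, n = 3 each), and Usp22-KOA exceeded Usp22-KOB by 0.32 ± 0.09 (limma, adjusted p = 0.0139, and 0.0521 without Usp22-KOB 2, where the difference was 0.29). Against WT, Usp33 differed by -0.29 ± 0.09 in Usp22-KOB (limma, adjusted p = 0.0284). That call ended without Usp22-KOB 1, Usp22-KOB 2, WT 1 or WT 2 (log2 -0.23 to -0.27, adjusted p up to 0.0955).

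Usp46 and Usp10 likewise stood higher in Usp22-KOA, exceeding Usp22-KOB by 0.75 ± 0.11 and 0.55 ± 0.09 (limma, adjusted p = 0.000435 and 0.000743). For Usp10 the differences from WT were 0.23 ± 0.09 in Usp22-KOA and -0.32 ± 0.09 in Usp22-KOB (limma, adjusted p = 0.0481 and 0.0177). The Usp22-KOA call of Usp10 ended without any 1 Usp22-KOA sample, Usp22-KOB 2, WT 2 or WT 3 (log2 0.17 to 0.25, adjusted p up to 0.162), and the Usp22-KOB call without Usp22-KOB 1, Usp22-KOB 2, WT 1 or WT 2 (log2 -0.25 to -0.31, adjusted p up to 0.0691) and with the pan-leukocyte covariate (-0.18, adjusted p = 0.418).

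Usp21, Usp43 and Usp11 led in the other direction. Usp21, which acts on ubiquitin of histone H2A, stood at 18.4, 18.2 and 18.1 TPM in Usp22-KOA, with 26.2, 30.6 and 32.2 TPM in Usp22-KOB and 26.9, 28.6 and 26.5 TPM in WT. Usp22-KOA was below all other samples, and Usp22-KOB overlapped WT. Its log2 difference was -0.67 ± 0.08 between the knockouts and -0.56 ± 0.08 in Usp22-KOA against WT (limma, adjusted p = 0.000155 and 0.000314). Usp43 differed by -0.79 ± 0.19 between the knockouts (adjusted p = 0.00769). Usp11, an X-linked relative of Usp4 that acts in BRCA2-dependent repair, was low, at 1.37, 1.01 and 0.826 TPM in Usp22-KOA, with 1.73, 2.32 and 2.06 TPM in Usp22-KOB and 1.25, 1.57 and 1.34 TPM in WT. Usp22-KOB lay above every Usp22-KOA and WT sample, and Usp22-KOA overlapped WT. The difference from WT did not pass in Usp22-KOB (0.35 ± 0.16, limma adjusted p = 0.114), and the difference between the knockouts was -0.56 ± 0.16 (limma, adjusted p = 0.0153), which ended without Usp22-KOA 3 or Usp22-KOB 2 (log2 -0.47 to -0.49, adjusted p up to 0.0620). Usp37, known from the cell cycle, differed by -0.45 ± 0.10 between Usp22-KOA and Usp22-KOB (limma, adjusted p = 0.00581), with 3.92 ± 0.480 TPM and 5.73 ± 0.299 TPM (SD, n = 3 each). It averaged 6.16 ± 0.395 TPM in WT, from which Usp22-KOA differed by -0.54 ± 0.10 (limma, adjusted p = 0.00182). Usp22-KOB did not pass against WT (-0.09 ± 0.10, limma adjusted p = 0.546).

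**Figure D4:**
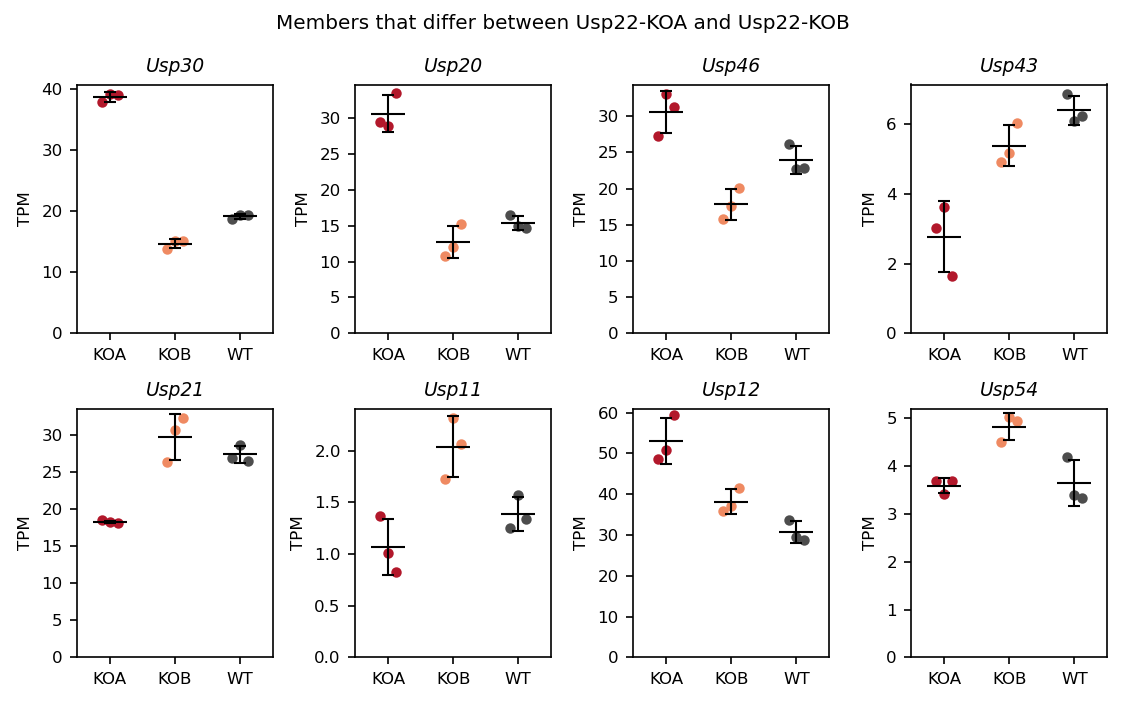
TPM per sample in Usp22-KOA, Usp22-KOB and WT, with mean and SD (n = 3 each), for 8 members called between the knockouts. Usp30, Usp20, Usp46 and Usp12 lie higher in Usp22-KOA than in Usp22-KOB, and Usp43, Usp21, Usp11 and Usp54 lie lower.

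Usp38, the relative of Usp35, moved in the opposite direction to it in Usp22-KOA. It stood at 16.7, 18.1 and 17.7 TPM in Usp22-KOA, with 14.7, 14.0 and 15.1 TPM in Usp22-KOB and 15.6, 15.5 and 13.9 TPM in WT, so that only Usp22-KOA was apart from WT. It rose there by 0.21 ± 0.07, whereas Usp35 differed by -0.65 ± 0.11 (limma, adjusted p = 0.0330 and 0.00103), and the Usp38 call ended without Usp22-KOA 2, Usp22-KOA 3 or WT 3 (log2 0.16 to 0.20, adjusted p up to 0.114).

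Usp39, Usp5, Usp24, Usp6nl and Usp7 were also called in at least 1 comparison. Usp39, the splicing factor, averaged 34.3 ± 1.89 TPM in Usp22-KOA, with 33.7 ± 1.40 TPM in Usp22-KOB and 30.0 ± 1.68 TPM in WT (SD, n = 3 each). Its log2 difference of 0.17 ± 0.06 for both (limma, adjusted p = 0.0342) ended without Usp22-KOA 1, Usp22-KOA 2, Usp22-KOB 2, WT 1 or WT 3 (log2 0.15 to 0.18, adjusted p up to 0.125). Usp5 differed by 0.29 ± 0.07 in Usp22-KOA (limma, adjusted p = 0.00669). For both knockouts its difference was 0.18 ± 0.06 (limma, adjusted p = 0.0335), a call that ended without Usp22-KOA 1, Usp22-KOA 2, WT 2 or WT 3 (log2 0.13 to 0.19, adjusted p up to 0.144). Usp24, a very large member linked to DNA damage, averaged 14.5 ± 0.697 TPM in Usp22-KOA, with 11.8 ± 0.975 TPM in Usp22-KOB and 11.5 ± 0.546 TPM in WT, and rose in Usp22-KOA by 0.31 ± 0.08 (limma, adjusted p = 0.0107). Usp6nl differed only between the knockouts, by 0.37 ± 0.11 (limma, adjusted p = 0.0178), and not without Usp22-KOA 3, Usp22-KOB 1 or Usp22-KOB 2 (log2 0.28 to 0.36, adjusted p up to 0.0619). Usp7 likewise differed between the knockouts by 0.20 ± 0.07 (limma, adjusted p = 0.0322), a call that ended on leaving out any Usp22-KOA sample, Usp22-KOB 1 or Usp22-KOB 2 (log2 0.15 to 0.21, adjusted p up to 0.104).

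By role, 4 of the 6 tested members of the proteasome, free chain, endoplasmic reticulum and mitochondrial group rose and 1 fell in both knockouts on average, with a median log2 difference of 0.22. In Usp22-KOA alone 4 of them rose and 1 fell, whereas in Usp22-KOB alone 1 rose and 2 fell. Among the 10 receptor, TGF-beta, Wnt and trafficking members, 4 rose and 0 fell on average, with a median of 0.04. Of these, 5 rose and 0 fell in Usp22-KOA, and 1 rose and 2 fell in Usp22-KOB. Of the 10 tested members of p53 control, the cell cycle and DNA repair, 2 rose and 2 fell (median 0.04), and of the 4 chromatin, splicing, nucleolar and NF-kB members 1 rose and 2 fell (median -0.08). Of 6 less studied members 0 rose and 3 fell (median -0.24). These groups are small and stand beside the 25.9% higher and 24.1% lower of all genes on average. Of all genes, 29.4% rose and 26.9% fell in Usp22-KOA, and 18.7% rose and 18.4% fell in Usp22-KOB. The 10 members Usp1, Usp8, Usp9x, Usp17la, Usp19, Usp28, Usp31, Usp32, Usp34 and Usp36 passed in none of the 4 comparisons. Among them are Usp1, which acts on Fancd2 and PCNA, Usp8 of endosomal receptor sorting, the membrane-anchored Usp19 and the nucleolar Usp36, and the log2 differences of both knockouts for the 10 ran from -0.24 (Usp17la) to 0.14 (Usp1). The share of all genes that passed in none of the 4 comparisons was not counted.

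Members that moved together were also read at their starts. RefSeq (GRCm38.p6) gave 39 windows of 250 bases before a start for 38 of the 48 members. The 3 shown are those of the 12 members plotted with all knockout samples on 1 side of WT that had a RefSeq window and no annotated GENCODE exon in its last 120 bases. The window of Usp4, which rose, lies at chr9:108347711-108347830 on the plus strand, and those of Usp35 (chr7:97332110-97332229) and Usp40 (chr1:88008552-88008671), which fell, on the minus strand. Capitals mark GC boxes (GGGCGG or its reverse complement) and an E-box (CACGTG).
Usp4: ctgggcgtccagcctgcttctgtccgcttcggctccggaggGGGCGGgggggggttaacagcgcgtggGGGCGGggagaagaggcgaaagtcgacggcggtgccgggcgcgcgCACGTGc
Usp35: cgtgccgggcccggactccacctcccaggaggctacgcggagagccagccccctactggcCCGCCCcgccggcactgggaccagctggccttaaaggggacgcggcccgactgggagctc
Usp40: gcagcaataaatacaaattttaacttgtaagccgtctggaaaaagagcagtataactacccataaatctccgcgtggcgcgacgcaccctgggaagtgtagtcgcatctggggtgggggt
GC content was 75.0%, 75.0% and 49.2% in these 120 bases. The median over 250 bases was 65.4% for the 30 windows of tested members, 46.0% for the 9 windows of members not tested and 52.4% for all 32851 RefSeq windows. Over 250 bases and both strands, a GC box stood in 24 of the 39 member windows and in 32.7% of all windows, an E-box in 3 and 6.02%, an ETS core (CCGGAAGT) in 2 and 2.88%, a CCAAT box (CCAAT) in 11 and 33.8%, and a TATA box (TATAAA) in 5 and 12.4%. The interferon response-like motif, the NRF1 motif and the cyclic AMP element (TGACGTCA) stood in 0 member windows and in 2.98%, 0.782% and 1.55% of all windows. A match of letters is a description and not a binding site, and matches of different motifs may overlap.

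Enzymes and partners that act beside the USPs were read with them, again for both knockouts averaged. Of the ubiquitin-activating enzymes, Uba1 rose by 0.13 ± 0.04 on the log2 scale (limma, adjusted p = 0.0285) and Uba6 did not pass (-0.15 ± 0.11, adjusted p = 0.290). Of 8 tested USP cofactors, 2 rose and 1 fell, or 37.5% called, beside 50.0% of all genes. Stam2, the endosomal partner of Usp8, rose by 0.36 ± 0.07 and Gmps, a partner of Usp7, changed by -0.24 ± 0.06 (limma, adjusted p = 0.00246 and 0.00855). Each was called in 1 knockout only. Stam2 differed by 0.60 ± 0.08 in Usp22-KOA and 0.11 ± 0.08 in Usp22-KOB (limma, adjusted p = 0.000191 and 0.311). Gmps differed by -0.01 ± 0.07 in Usp22-KOA and -0.47 ± 0.07 in Usp22-KOB (limma, adjusted p = 0.880 and 0.000954). Of 3 proteins of USP type without a number, Uspl1, which acts on SUMO, rose by 0.21 ± 0.06 (adjusted p = 0.0239), and Cyld, which restrains NF-kB, did not pass (-0.04 ± 0.09, adjusted p = 0.764).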

How the data were processed

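The authors deposited 1 table of TPM, scaled to 1000000 per column, for 24493 genes, with 1 column per sample. Salmon, DESeq2 and the build mm10 are named in the submitters' processing notes, without roles, versions or annotation. No column was left over. From these values log2(TPM + 1) was computed, genes averaging 1 TPM or more were kept, and 1 limma fit over 3 group means with a trend of spread on level gave all comparisons, with Benjamini-Hochberg adjustment over the 13843 genes tested. The fit was checked on simulated data. The members and lists were chosen with earlier results of these data known. Values in every sample are given for up to 6 called members each way with all knockout samples on 1 side of WT, up to 3 each way between the knockouts, the 4 highest, paralogs called in opposite directions, and Usp22. Of the other lists the 2 members with the smallest adjusted p are named. Wdr48, Usp13, Usp15, Usp24, Usp28, Usp31, Usp33, Usp37, Usp39, Usp6nl and the members below 1 TPM were named as relatives, partners or remaining calls after their values were seen. Coordinates and coding sequences are from GENCODE M21 (GRCm38), matched by symbol, with the longest coding transcript that holds the cysteine codon. Alternatives were other pseudocounts, filters, scalings, limma settings, a replicate block, a covariate and each sample left out. Fits ran in limma 3.58.1 under R 4.3.3, and sequences and figures in Python 3.11.15 with numpy 2.4.6, matplotlib 3.10.9 and pandas 2.3.3. Results for some ubiquitin pathway genes are not reported here.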

Additional observations from a re-analysis of the deposited data

Results flagged for a closer look

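For 3 members the knockouts went opposite ways from the WT samples they share, each past the threshold, and the difference between the knockouts passed as well (limma, Benjamini-Hochberg adjusted). How many of all genes did so was not counted. Of all genes, 56.3% were called in Usp22-KOA against WT, 37.1% in Usp22-KOB against WT and 51.7% between the knockouts. Usp30 in Usp22-KOA exceeded Usp22-KOB by 1.34 on the log2 scale (adjusted p = 7.27e-07), Usp46 by 0.75 (0.000435) and Usp10 by 0.55 (0.000743). With pan-leukocyte marker level as a covariate the differences of Usp22-KOB from WT were not called, at -0.31 for Usp30 (adjusted p = 0.0701), -0.18 for Usp46 (0.471) and -0.18 for Usp10 (0.418). In each, all 3 Usp22-KOA samples were above and all 3 Usp22-KOB samples below the WT samples. On leaving out each of the 9 samples in turn, the Usp22-KOA call against WT ended 6 times for Usp10 and 4 times for Usp46. The Usp22-KOB call ended 4 and 2 times, and for Usp30 0 calls ended. The Usp22-KOA call of Usp10 also ended with no filter, quantile normalization, rescaling without the gene Mir6236, no trend and the replicate block. That of Usp46 also ended with no filter. The 3 differences between the knockouts themselves remained called under every alternative run.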

How the results depend on the processing

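Over 74 called member results and 1545 alternative values, the call was kept in 1342 and ended in 203, and 0 reversed. Of the 74, 44 were kept whichever sample was left out and 37 under every alternative run. With 1 sample left out, the members called ran from 7 to 12 higher and 5 to 10 lower in both knockouts against WT, 11 to 15 and 7 to 9 in Usp22-KOA, 1 to 4 and 3 to 13 in Usp22-KOB, and 8 to 17 and 3 to 6 in Usp22-KOA against Usp22-KOB. With the 6 knockout samples as 1 group, 3 were higher and 5 lower in both. With the pan-leukocyte covariate, 5 were lower in both, 1 was lower in Usp22-KOB and 7 were higher in Usp22-KOA than in Usp22-KOB. In Usp22-KOB the higher count was 1 with no filter, 7 with median-of-ratios scaling, 7 with quantile normalization, 8 with array weights (14 lower) and 2 with only the groups compared. Between the knockouts the lower count was 2 at a mean of at least 5 TPM and 3 with quantile normalization. The causes were not tested. The labels give no shared source for samples of the same replicate number. Their deviations correlated by -0.12 to 0.28 over 9 pairs, and a sample correlated best with its own number in 5 of 6 cases between the knockouts and 4 of 12 with WT (chance gives 6 of all 18), a hint from the data and not the design. With a replicate block, 8 rose and 8 fell in both, 12 and 8 in Usp22-KOA, 2 and 7 in Usp22-KOB, and 12 and 4 between the knockouts. TPM without depth gives no counting error, and with 3 samples a group small differences of low members could not be resolved.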

Other observations

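The other deubiquitinase families were read beside the USPs with both knockouts averaged against WT, in which 50.0% of all genes were called. Of 11 JAMM metalloproteases and their inactive relatives, 7 rose and 4 fell. Eif3f and Eif3h, subunits of a translation initiation factor, averaged 218 and 303 TPM in Usp22-KOA samples and 222 and 423 TPM in Usp22-KOB, against 300 and 447 TPM in WT, with log2 differences of -0.45 ± 0.04 and -0.32 ± 0.03 (limma, Benjamini-Hochberg adjusted p = 2.86e-05 and 4.19e-05). In Usp22-KOB against WT 3 of the 11 were called, 1 higher and 2 lower, or 27.3%, beside 37.1% of all genes.

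Of 5 MINDY and ZUFSP enzymes, 3 rose and 1 fell, and Mindy2 and Mindy3, which trim long chains, rose by 0.80 ± 0.07 and 0.71 ± 0.07 (limma, adjusted p = 1.82e-05 and 3.97e-05). Of 14 tested OTU enzymes, 2 rose and 3 fell, and Otud1 averaged 5.83 ± 1.65 TPM in Usp22-KOA samples and 3.99 ± 0.300 TPM in Usp22-KOB, against 1.98 ± 0.376 TPM in WT (SD, n = 3 each), a log2 difference of 0.96 ± 0.16 (limma, adjusted p = 0.000914). Otud3 rose by 0.44 ± 0.09 (adjusted p = 0.00244), with 0.75 ± 0.10 in Usp22-KOA and 0.14 ± 0.10, not called, in Usp22-KOB (limma, adjusted p = 0.000194 and 0.295). Of 5 UCH enzymes, 0 rose and 2 fell. Uchl1, best known from neurons, averaged 0.397 TPM in Usp22-KOA samples and 2.92 TPM in Usp22-KOB, against 5.97 TPM in WT (log2 -1.58 ± 0.20, adjusted p = 0.000229), and Uchl3 differed by -0.28 ± 0.07 (0.00715). In Usp22-KOB alone Uchl3 did not pass (-0.20 ± 0.08, limma adjusted p = 0.0711). The 3 Josephin enzymes did not pass, with Atxn3 at -0.12 ± 0.09 and Josd2 at 0.02 ± 0.08 (limma, adjusted p = 0.313 and 0.825).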
